A study of Arabidopsis thaliana with 8 samples.

Results

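Small RNAs of *hot3-2* seedlings were compared with those of wild type (WT), over the nuclear genome outside the ribosomal DNA (rDNA). Both groups had 2 libraries, which made up 4 of the 8 small RNA libraries of the series. All lines are in the Columbia (Col-0) background. The *hot3-2* line carries a T-DNA insertion in *HOT3* (AT1G76810), the gene for the translation initiation factor eIF5B1. A second insertion allele, *hot3-3* (2 libraries), and a line in which the *HOT3* promoter drives HOT3 fused to the yellow fluorescent protein EYFP in the *hot3-2* background (*HOT3-EYFP*, 2 libraries) were set beside the comparison. All libraries came from whole 18-day-old *Arabidopsis thaliana* seedlings, so a change in the share of a cell type cannot be told apart from a change in small RNA per cell. The sources call the replicates independent but do not say that they came from separate plants or cultures, and p-values therefore measure the spread between libraries.

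In plants, small RNAs are made by Dicer-like enzymes that cut double-stranded RNA to set lengths. DCL1 releases mostly 21-nt microRNAs (miRNAs) from hairpin transcripts, DCL4 and DCL2 make 21-nt and 22-nt siRNAs from longer double strands, and DCL3 makes the 24-nt siRNAs that guide DNA methylation at transposons and repeats. Some miRNAs cut noncoding *TAS* transcripts or mRNAs, whose fragments are then copied into double strands and diced into secondary siRNAs. eIF5B joins the ribosomal subunits at the start codon, and the study examined its part in 18S rRNA maturation. The comparison described here asked which nuclear small RNAs other than those from rDNA differed in the mutant.

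The miRNAs on which the comparison turned are shown first, as annotated in RefSeq on TAIR10.1, 5′ to 3′ with the seed (bases 2 to 8) in capitals. miR845a and miR845b had the largest rises among the miRNA genes that were called. Their seeds differ, but in both the letters GCUCUG are followed by auaccaa, as they also are in the 24-nt product of *MIR829*, another gene that rose. The others come from families with members called lower (miR159, miR165, miR166, miR164 and miR160) and from the trigger of *TAS1* and *TAS2* (miR173).
miR845a: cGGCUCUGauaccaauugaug
miR845b: uCGCUCUGauaccaaauugaug
miR829-3p.1: aGCUCUGAuaccaaaugauggaau
miR173-3p: uGAUUCUCuguguaagcgaaa
miR173-5p: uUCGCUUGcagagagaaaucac
miR159a: uUUGGAUUgaagggagcucua
miR159b-3p: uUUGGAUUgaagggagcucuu
miR159c: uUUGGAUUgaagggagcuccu
miR165b: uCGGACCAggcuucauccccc
miR166a-3p: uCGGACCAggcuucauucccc
miR164b-5p: uGGAGAAGcagggcacgugca
miR164c-5p: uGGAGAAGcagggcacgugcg
miR160a-5p: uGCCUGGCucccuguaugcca
*MIR845a* (mature product at chr4:12217457-12217477, minus strand) and *MIR845b* (chr4:12214086-12214107, minus strand) lie on chromosome 4, *MIR159b* (chr1:6220813-6220833, plus strand) and *MIR159a* (chr1:27713234-27713254, minus strand) on chromosome 1, *MIR166a* (chr2:19176241-19176261, plus strand) on chromosome 2, and *MIR173* (miR173-5p at chr3:8236161-8236182, plus strand) on chromosome 3. The 3 miR159 genes share the seed UUGGAUU but differ in the last bases of the mature sequence, and 9 genes share CGGACCA. Some members of a family have the same mature sequence, such as miR166a-3p and miR166e-3p, or miR160a-5p and miR160c-5p. A read of such a sequence can fit several loci. For this reason family sums are given beside single loci below.

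The libraries held between 6793502 and 8210328 counts over 18 to 26 nt. Nuclear counts outside rDNA made up 42.1% and 41.7% of the WT libraries and 51.0% and 50.5% of the *hot3-2* libraries, 45.4% to 45.7% (*hot3-3*) and 32.2% to 32.6% (*HOT3-EYFP*). Windows across *HOT3* itself held 17 and 29 small RNA counts (WT), 18 and 19 (*hot3-2*), 28 and 24 (*hot3-3*), and 535 and 471 (*HOT3-EYFP*), and thus more in the line with the transgene. Such counts do not read the mRNA and do not check the genotype.

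The length profile of nuclear small RNAs differed between the genotypes. The share of 24-nt small RNAs was 35.6% in each WT library and 30.9% and 31.1% (*hot3-2*), a difference of -4.67 percentage points (SD 0.0019 for WT and 0.123 for *hot3-2*, n = 2 each). The share of 22-nt small RNAs was 10.12% and 10.03% (WT) and 11.69% and 11.64% (*hot3-2*), a difference of 1.59 points. The 21-nt share was 17.0% in both WT libraries and 16.7% in both *hot3-2* libraries. Shorter small RNAs took larger shares, with 19-nt small RNAs at 5.49% and 5.50% (WT) and 7.95% and 7.89% (*hot3-2*). The groups did not overlap at 19, 21, 22 or 24 nt, but an exact permutation test of 2 against 2 libraries cannot give a p under 0.33. These differences hold for nuclear counts outside rDNA. With the counts of rDNA and organelles added to both the length and the total, the difference that was -0.2528 points for the share of 21 nt in nuclear counts turned to 0.1663 points, and that for the share of 24 nt in nuclear counts became -0.577 points. Nuclear 24-nt counts outside rDNA scaled to the total of all counts were not lower in the mutant, at 149922 and 148579 CPM of all counts (WT) and 157634 and 156894 (*hot3-2*).

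To find which loci differed, counts in 100-bp windows with at least 10 counts in 2 or more libraries were tested at each length on its own. Testing used edgeR's quasi-likelihood test over all 8 libraries, and calls required a fold change of 2 or more and a Benjamini-Hochberg adjusted p under 0.01. At 21 nt, 126 windows of 4078 tested (3.09%) were higher in *hot3-2* and 70 (1.72%) were lower. At 22 nt, 111 of 7809 (1.42%) were higher and 76 (0.973%) lower. At 24 nt, 230 of 25902 windows were called, with 0.633% of those tested higher and 0.255% (66 windows) lower. The 20-nt class, with 64 of 1849 windows higher (3.46%) and 25 lower (1.35%), resembled the 21-nt class in shares. The remaining lengths gave 18 higher (1.53%) and 10 lower (0.849%) of 1178 windows at 18 nt, 29 (2.05%) and 16 (1.13%) of 1418 at 19 nt, and 82 (0.703%) and 34 (0.291%) of 11666 at 23 nt. No window passed edgeR's test at 25 nt (723 tested) or 26 nt (443 tested). An unadjusted p under 0.05 was reached by 88 higher and 73 lower windows at 25 nt and by 64 and 48 at 26 nt, and DESeq2 called 10 higher and 8 lower windows (25 nt) and 15 and 5 (26 nt).

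**Figure D1:**
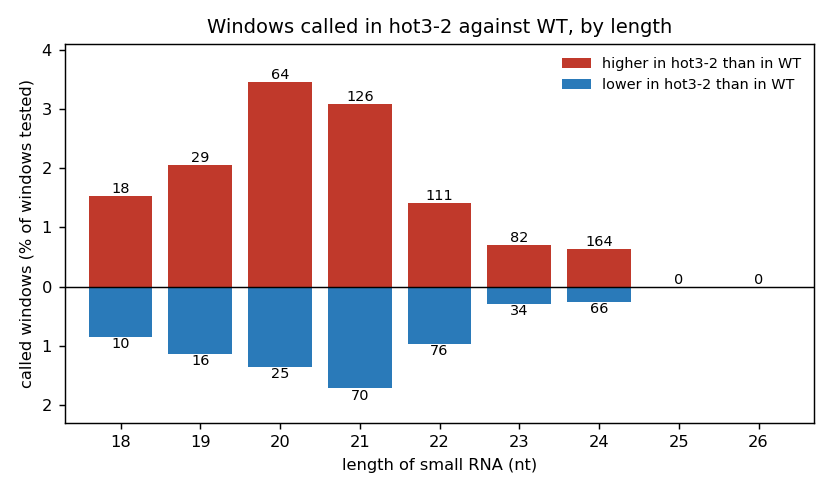
Windows called in *hot3-2* against WT, by small RNA length in nt (x axis), as a percentage of the windows tested at that length (y axis). Bars above 0 are windows higher in *hot3-2*, bars below 0 are windows lower, and the number of windows stands at each bar. Rises outnumbered falls at each length from 18 to 24 nt under the main scaling, and no window was called at 25 or 26 nt.

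The split between rises and falls moved with the scaling. Scaling to the total counts of a library raised the median window by 0.35 (21 nt), 0.38 (22 nt) and 0.03 (24 nt) on the log2 scale and gave 177 higher and 46 lower windows at 21 nt and 190 and 43 at 22 nt. Scaling to all nuclear counts lowered the 24-nt median by 0.24 and turned the 24-nt split to 127 higher and 191 lower. Changes are therefore reported relative to the median window of the same length. Medians over the windows called higher at 21 nt were 2.44 on the log2 scale (*hot3-2*), 2.50 (*hot3-3*) and 0.39 (*HOT3-EYFP*), each against WT. For the windows called lower at 21 nt they were -2.27, -1.82 and -0.43. These contrasts share the WT libraries, and *HOT3-EYFP* shares the *hot3-2* parental line.

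An inverted repeat on chromosome 3 held the largest group of windows that rose. Its arms, chr3:1963723-1966967 and chr3:1967205-1970450 on TAIR10.1, are 3245 and 3246 bp long, are 99.1% identical over 3242 aligned bases, and are separated by 237 bp. Transcripts across such a repeat can fold into one long double strand, a known substrate of Dicer-like enzymes. The right arm overlaps AT3G06435, annotated as an uncharacterized protein, and the left arm overlaps the noncoding gene AT3G01835. The repeat gave 3288 and 3551 counts of 21 nt (WT), 19809 and 20640 (*hot3-2*), 19420 and 20094 (*hot3-3*), and 3866 and 3237 (*HOT3-EYFP*). Both insertion alleles were thus far above WT, and the *HOT3-EYFP* libraries lay near WT. In CPM (counts scaled to the TMM-adjusted nuclear library of that length), the repeat was 4.52-fold higher in *hot3-2* at 21 nt, 4.26-fold at 22 nt and 3.48-fold at 24 nt. The same folds were 4.90, 4.89 and 3.84 (*hot3-3*) and 1.25, 1.14 and 1.27 (*HOT3-EYFP*). It supplied 1.98% and 2.02% of all nuclear 22-nt counts (WT) and 7.96% and 7.86% (*hot3-2*).

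Windows called higher in the repeat numbered 57 of 66 tested at 21 nt, 60 of 65 at 22 nt and 50 of 65 at 24 nt, and 0 were lower. The rise covered both arms. At 22 nt the left arm held 2632 and 2888 counts (WT) and 14882 and 15329 (*hot3-2*), and the right arm held 3080 and 3220 (WT) and 18405 and 19040 (*hot3-2*). The 2 windows inside the 237-bp loop held 0 and 0 counts of 22 nt (WT) and 0 and 3 (*hot3-2*). The highest 22-nt window, in the left arm, held 459 and 457 counts (WT) and 2273 and 2446 (*hot3-2*). As the arms are near-identical, a median of 79% of the 21-nt sequences in a tested window occur elsewhere in the genome, and counts cannot be divided between the arms with certainty. Without the repeat, 69 windows were called higher at 21 nt, 51 at 22 nt and 114 at 24 nt.

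**Figure D2:**
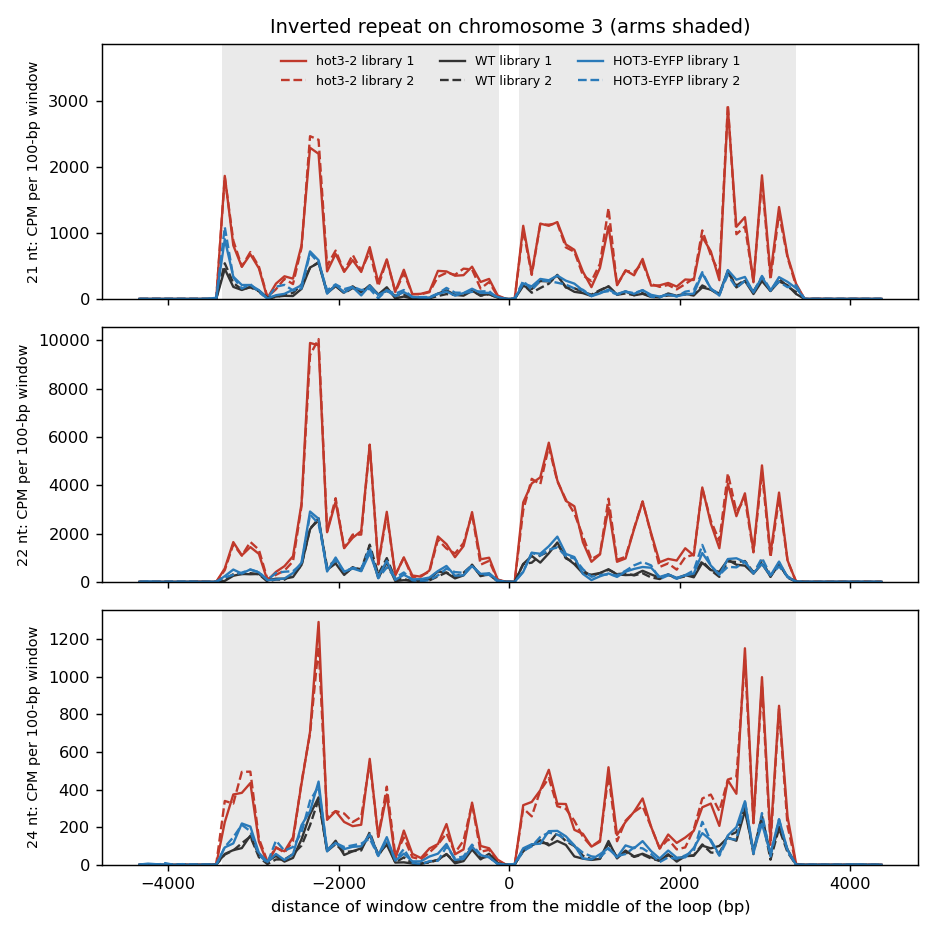
CPM per 100-bp window at 21, 22 and 24 nt (y axes, 1 panel a length) against the distance of the window from the middle of the loop in bp (x axis). Lines are single libraries of *hot3-2* (red), WT (black) and *HOT3-EYFP* (blue), and grey marks the arms. The *hot3-2* libraries stand above the others over most of both arms at each length, and counts in the loop and the flanks are low in all of them.

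Apart from the repeat, the longest run of windows that rose at 21 nt was chr5:16715900-16717299 (11 windows). It overlaps AT5G41765, annotated as a DNA-binding storekeeper protein-related gene, and the uncharacterized noncoding gene AT5G06195. The windows of AT5G41765 held 33 and 26 counts of 21 nt (WT), 563 and 608 (*hot3-2*), 463 and 471 (*hot3-3*), and 33 and 12 (*HOT3-EYFP*) (log2 fold change 3.91, SE 0.36, adjusted p = 0.000169, edgeR). At 24 nt AT5G06195 held 31 and 26 counts (WT) and 589 and 644 (*hot3-2*) (4.35, SE 0.16, adjusted p = 6.65e-08). Small RNAs of this locus were thus low in WT and *HOT3-EYFP* and high in both alleles. A run near AT1G73490 on chromosome 1 rose at 21 nt (3 windows) and 22 nt (4 windows).

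The longest run of windows that fell was in AT5G38850 (15 windows at 21 nt and 8 at 22 nt), which encodes a TIR-NBS-LRR disease resistance protein (NLR). NLR mRNAs are a known source of secondary siRNAs in plants. This gene held 1951 and 1998 counts of 21 nt (WT), 331 and 357 (*hot3-2*), 226 and 220 (*hot3-3*), and 680 and 594 (*HOT3-EYFP*). Both alleles lay far below WT, with *HOT3-EYFP* between. The log2 fold change was -2.91 at 21 nt (SE 0.11, adjusted p = 3.06e-07) and -3.09 at 22 nt (SE 0.17, adjusted p = 2.06e-07) in *hot3-2*. In *HOT3-EYFP* against WT it was -1.36 at 21 nt.

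For miRNA genes and other annotated genes, the windows that overlap a gene were summed. At 21 nt, 34 of 3024 loci were higher (1.12%) and 36 lower (1.19%). At 22 nt the counts were 41 (1.02%) and 66 (1.65%) of 4000, and at 24 nt 75 (1.20%) and 38 (0.607%) of 6256. Scaling to total counts changed the splits to 57 and 18 loci at 21 nt and to 114 and 36 at 22 nt. Of 326 annotated miRNA genes, 195 passed the count filter at 21 nt, of which 14 were higher and 17 lower. Among the 132 genes of the listed families, 108 were tested, with 9 higher, 17 lower and a median log2 fold change of -0.63 (0.18 over all loci tested). With total-count scaling these medians were -0.28 and 0.53. How the sum over all miRNA genes compared with WT moved with the scaling. Scaled to a common library total (CPM of all counts), it was 34916 and 34716 at 21 nt (WT), 35093 and 35506 (*hot3-2*), 29270 and 29215 (*hot3-3*), and 22024 and 21383 (*HOT3-EYFP*), whereas its share of nuclear 21-nt counts, given with the classes, was lower in *hot3-2*.

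The miRNA genes that fell include the one with the highest 21-nt level in WT. *MIR159b*, whose product represses GAMYB-like transcription factors, had 118019 and 117508 CPM (WT), 34529 and 33219 (*hot3-2*), 36570 and 35384 (*hot3-3*), and 82375 and 82012 (*HOT3-EYFP*) (log2 -1.80, SE 0.03, adjusted p = 1.03e-09). *MIR159a* had 98048 and 95641 CPM (WT) and 36031 and 34618 (*hot3-2*) (-1.46, SE 0.03, adjusted p = 1.17e-08). The *hot3* alleles lay below WT without overlap, and *HOT3-EYFP* lay between. Summed over the 6 miR159 and miR319 loci, *hot3-2* was at 0.342 of WT, *hot3-3* at 0.372 and *HOT3-EYFP* at 0.729.

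Called lower at 21 nt were also 2 of 8 tested loci of miR165 and miR166, 2 of 3 of miR164, 2 of 3 of miR160 and 1 of 4 of miR167, while the sums over a family were not tested. *MIR166a*, which targets HD-ZIP III mRNAs, had 43961 and 44831 CPM (WT) and 13197 and 11566 (*hot3-2*) (-1.84, SE 0.07, adjusted p = 2.73e-07). The sum over 8 miR165 and miR166 loci was 0.364 of WT in *hot3-2*, 0.334 (*hot3-3*) and 0.508 (*HOT3-EYFP*). *MIR165b* had 5295 and 6091 CPM (WT), 1094 and 928 (*hot3-2*), and 1224 and 793 (*HOT3-EYFP*), so that the fusion line lay with the mutants at this gene. Against NAC genes of the CUC group acts miR164, whose 3 loci summed to 0.323 of WT. The auxin response factor regulators miR160 (3 loci) and miR167 (4 loci) summed to 0.320 and 0.361 of WT in *hot3-2*, and to 0.777 and 0.774 (*HOT3-EYFP*). In each of these sums the 2 *hot3-2* libraries were below both WT libraries. The families were chosen for members called lower, so this adds no support. The miR172 sum (0.640 of WT), with no gene called, did not overlap either.

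Other falls were called for *MIR168a*, which targets the *AGO1* mRNA (1958 and 1997 CPM for WT, 649 and 507 for *hot3-2*), and for *MIR396b*, a regulator of growth-regulating factors (25899 and 25119 CPM for WT, 11811 and 10762 for *hot3-2*). *MIR391*, a relative of miR390, had 464 and 418 CPM (WT) and 51 and 77 (*hot3-2*). Sums over a family in *hot3-2* were 0.442 of WT for miR168, 0.485 for miR396 and 0.495 for miR390 with miR391. *MIR156d*, *MIR159c*, *MIR160a*, *MIR160c*, *MIR163*, *MIR164b*, *MIR164c*, *MIR167a*, *MIR319c* and *MIR398a* complete the 17. The annotated miR163 is 24 nt long. At 24 nt *MIR163* was not called and had a log2 fold change of 0.23, against -1.22 at 21 nt. The 3 miR398 loci summed to 0.821 of WT at 21 nt in *hot3-2* and to 0.962 in *hot3-3*. With total-count scaling, *MIR159c*, *MIR160a*, *MIR160c*, *MIR163*, *MIR319c*, *MIR396b* and *MIR398a* no longer met the call. *MIR159c*, *MIR160a*, *MIR160c*, *MIR319c* and *MIR398a* also lost it when any 1 of the 4 libraries was left out, as did *MIR4245* and the 21-nt rise of *MIR845b*. *MIR163* lost it without WT replicate 1 or either *hot3-2* library, and *MIR858a* without WT replicate 2. These are miRNA genes at 21 nt. Other windows and genes named in this text also lost the call when a library was left out, and they are not marked. With windows assigned to genes by their centre, which leaves out the window of the mature reads, *MIR159b* stood at 0.81 and *MIR398a* at 2.34 (log2, 21 nt).

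The arms of a precursor did not always move together. The window that holds miR166a-3p went from 30811 counts (21 nt, sum of 2 libraries) in WT to 9353 (*hot3-2*), and that of miR166a-5p from 2053 to 2624. For *MIR398a* the windows of the 3p and 5p arms went from 496 to 142 and from 18 to 121. The *MIR173* windows rose for both arms, from 6747 to 25365 (3p) and from 132 to 324 (5p).

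Of the miRNA genes called higher, the miR845 loci had the largest rises. *MIR845a*, whose miRNA matches the primer binding site of retrotransposons and acts in pollen, held 253 and 228 counts of 21 nt (WT), 24712 and 29299 (*hot3-2*), 21536 and 23254 (*hot3-3*), and 369 and 208 (*HOT3-EYFP*). Its log2 fold change was 6.42 (SE 0.19, adjusted p = 4.87e-08). The neighbouring *MIR845b*, annotated with a 22-nt product, held 6 and 4 counts of 22 nt (WT) and 869 and 913 (*hot3-2*), with 14 and 5 (*HOT3-EYFP*) (7.02, SE 0.28, adjusted p = 3.93e-09). In CPM, *MIR845b* stood at 3747 and 3755 (*hot3-2*) and 3391 and 3904 (*hot3-3*). Both alleles were thus high, and WT and *HOT3-EYFP* low. The 2 loci together were 85.6-fold higher in *hot3-2* at 21 nt, 78.8-fold in *hot3-3* and 1.42-fold in *HOT3-EYFP*.

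*MIR843*, which shares windows with AT3G48058, had 442 and 463 CPM (WT), 5421 and 5664 (*hot3-2*), and 206 and 150 (*HOT3-EYFP*) (3.61, SE 0.15, adjusted p = 5.71e-07). *MIR158b* had 94 and 92 CPM (WT) and 987 and 852 (*hot3-2*) (log2 3.3, SE 0.21). *MIR829*, whose 24-nt product is annotated beside 21-nt ones, rose at 21 nt (68 and 60 counts for WT, 495 and 488 for *hot3-2*) and at 24 nt (30 and 30 CPM for WT, 183 and 178 for *hot3-2*). In these genes the *hot3-3* libraries lay beside those of *hot3-2*. *MIR823*, whose miRNA targets the DNA methyltransferase gene *CMT3*, had 89 and 118 CPM (WT) and 754 and 751 (*hot3-2*), but its windows are shared with *PRA8*. *MIR858a*, which targets MYB genes of flavonoid synthesis, had 1050 and 929 CPM (WT) and 2157 and 2043 (*hot3-2*). *MIR859*, *MIR866*, *MIR4245* and *MIR5028* also rose, as did *MIR863* and *MIR5026*, which share windows with the noncoding gene AT4G13495. At 22 nt, 6 miRNA genes of 114 tested were higher and 13 lower, and at 24 nt 4 of 88 were higher and 0 lower, all relative to the percentages of all loci above.

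**Figure D3:**
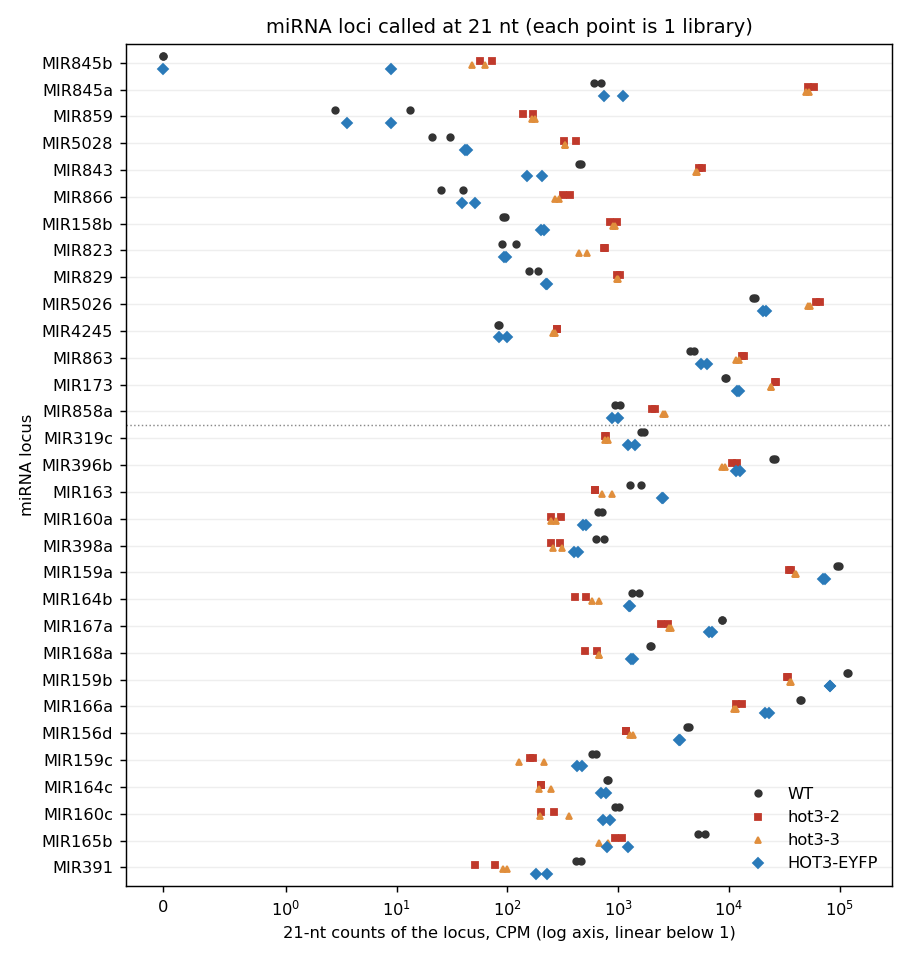
CPM at 21 nt (x axis, log scale that is linear below 1) of the 31 miRNA loci called in *hot3-2* against WT (y axis, ordered by fold change). Each point is 1 library, and the dotted line parts the 14 loci that rose from the 17 that fell. The *hot3-3* points lie near those of *hot3-2*, and the *HOT3-EYFP* points lie nearer to WT at all but *MIR165b*, *MIR166a*, *MIR396b* and *MIR398a*.

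miRNAs of the juvenile and adult phases were listed apart, since plants of 1 age can differ in phase. None of the 12 tested at 21 nt was called higher, and *MIR156d*, which restrains SPL transcription factors in the juvenile phase, was lower (4211 and 4354 CPM for WT, 1185 and 1177 for *hot3-2*). The annotated miR156d-5p, identical to miR156a-5p and miR156c-5p, is 20 nt long, and genes were not summed at that length. At 21 nt the tested miR156 and miR157 loci summed to 0.614 of WT in *hot3-2*, and the tested miR172 loci to 0.640. The median log2 fold change was -0.91 over 8 juvenile genes (miR156 and miR157) and -0.65 over 4 adult genes (miR172), against 0.18 over all loci. *MIR157a* and *MIR157b*, members of 1 family, traded counts between libraries (*MIR157b* had 767 and 0 CPM for WT and 0 and 1151 for *hot3-2*), so values of such copies do not belong to a single locus.

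Of the 13 *TAS* genes and trigger miRNA genes tested at 21 nt, 2 were higher and 0 lower, with a median of 0.07 (over all loci, 1.12% higher, 1.19% lower and a median of 0.18). The trigger *MIR173* rose from 9173 and 9411 CPM (WT) to 26695 and 26345 (*hot3-2*) (log2 1.51, SE 0.04, adjusted p = 4.87e-08), with 11734 and 12375 (*HOT3-EYFP*). Most of these reads came from the window of the 3p arm. At 22 nt, the length of the annotated trigger miR173-5p, *MIR173* had 5951 and 5828 CPM (WT) and 7671 and 7592 (*hot3-2*) (0.37, SE 0.06) and did not meet the fold limit. *TAS4*, whose siRNAs target MYB genes of anthocyanin synthesis, had 489 and 589 CPM (WT), 3595 and 3696 (*hot3-2*), 5310 and 5401 (*hot3-3*), and 967 and 807 (*HOT3-EYFP*) (2.76, SE 0.14, adjusted p = 2.03e-06). Its trigger *MIR828* was not called (log2 1.96, adjusted p = 0.271, edgeR), with 0 and 8 CPM (WT) and 21 and 12 (*hot3-2*). These levels are too low to judge whether the trigger changed.

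The genes cut by miR173 differed among themselves. *TAS2* had 30991 and 30923 CPM at 21 nt (WT) and 61019 and 58672 (*hot3-2*) (0.95, SE 0.03, adjusted p = 9.51e-08), just under the fold limit. *TAS1C* had 89865 and 90131 CPM (WT) and 54483 and 54274 (*hot3-2*) (-0.73, SE 0.03, adjusted p = 5.58e-07), also within the limit. *TAS1A* differed by 0.07 (SE 0.02) and *TAS1B* by -0.06 (SE 0.06), and neither passed the adjusted p limit. At 24 nt *TAS2* was called higher, with 1481 and 1701 counts (WT), 4964 and 5560 (*hot3-2*), and 1394 and 1244 (*HOT3-EYFP*) (1.65, SE 0.06, adjusted p = 6.65e-08). *TAS3*, the target of miR390, had 8176 and 8438 CPM at 21 nt (WT) and 7561 and 7278 (*hot3-2*).

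Of 30 coding genes known as sources of secondary siRNAs, 20 were tested at 21 nt, with 1 higher, 1 lower and a median of 0.07 against 0.18 over all loci. The 13 pentatricopeptide repeat (PPR) genes, targets of miR161 and *TAS* siRNAs, had a median of 0.53, and 10 of the 13 were above 0, as were 1755 of the 3024 loci tested. AT1G62910 was called higher (2231 and 2286 CPM for WT, 5040 and 4893 for *hot3-2*). AT1G63150 (4336 and 4226 CPM for WT, 8353 and 8393 for *hot3-2*) stayed just under the fold limit. The gene that fell was the NLR gene AT5G38850 described above. At 22 nt 2 of 18 were lower, AT5G38850 and AT1G12290, and the latter shares windows with *MIR472*, a miRNA of NLR genes.

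**Figure D4:**
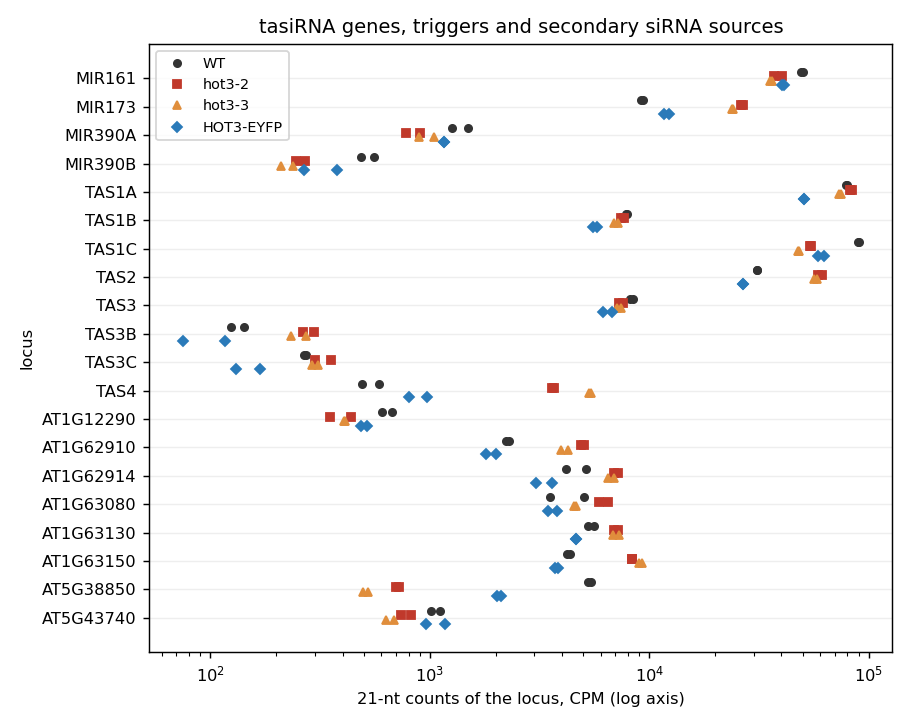
CPM at 21 nt (x axis, log scale) of tasiRNA genes, their trigger miRNA genes and the more abundant coding sources of secondary siRNAs (y axis). Each point is 1 library. *TAS4*, *MIR173* and AT1G62910 lie higher in both *hot3* alleles than in WT, AT5G38850 lies lower, and *TAS1A* and *TAS1B* lie close to WT in the *hot3* libraries.

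A minority of the called 24-nt windows had no count in 1 genotype. Among the windows called higher, 22 had no count in either WT library, and of the 66 called lower, 20 had none in either *hot3-2* library. The strongest rise, chr4:6563900-6563999, lies 184 bp from AT4G10620. It had 0 and 0 CPM (WT), 207.8 and 208.2 (*hot3-2*), 232.0 and 218.2 (*hot3-3*), and 109.0 and 137.4 (*HOT3-EYFP*). This is an at least 109-fold higher level in *hot3-2*, taking 3 counts over the WT libraries as the floor (adjusted p = 7.58e-07). A window 770 bp from AT3G28660 held 0 and 0 counts (WT), 87 and 85 (*hot3-2*), 59 and 65 (*hot3-3*), and 41 and 46 (*HOT3-EYFP*) (at least 54.4-fold). A window of the noncoding gene AT1G09035 held 0 and 0 (WT), 72 and 95 (*hot3-2*), 137 and 143 (*hot3-3*), and 124 and 86 (*HOT3-EYFP*). At these 3 places the fusion line did not return to the WT level of 0. Another window, 16 bp from AT3G45638, held 0 and 0 (WT), 70 and 69 (*hot3-2*), and 61 and 80 (*HOT3-EYFP*).

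The strongest falls included windows without a count in *hot3-2*. At chr3:8138700-8138799, in the pseudogene AT3G22955, 415.9 and 397.8 CPM of 24 nt were present in WT, 0 and 0 (*hot3-2*), 212.3 and 223.3 (*hot3-3*), and 3.03 and 0 (*HOT3-EYFP*). *hot3-2* was at least 225-fold lower (adjusted p = 5.86e-07), and the window was also at 0 in *hot3-2* at 21, 22 and 23 nt. At chr2:13702500-13702599, 639 bp from AT2G08505, WT held 248 and 245 counts, *hot3-2* 0 and 0, *hot3-3* 42 and 36, and *HOT3-EYFP* 1 and 0. *hot3-3* thus kept part of the WT level at both windows while the line with the transgene stayed near 0. A window 322 bp from *VIM3*, which encodes a methylcytosine-binding protein, held 123 and 100 counts (WT) and 0 in each of the other 6 libraries. A window 230 bp from the cytochrome P450 gene AT5G08250 held 240 and 315 counts (WT), 0 and 1 (*hot3-2*), 0 and 0 (*hot3-3*), and 2 and 0 (*HOT3-EYFP*). Falls also stood in the pseudogene AT2G32291 (126 and 92 counts for WT, 0 and 0 for *hot3-2*) and near the glutaredoxin gene *GRXC2* (108 and 70 for WT, 0 and 0 for *hot3-2*). As *HOT3-EYFP* was made in the *hot3-2* line, loss of HOT3 and other differences carried by that line cannot be told apart at such windows.

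Of the windows at 0 counts in 1 genotype at 24 nt, 14 of 22 (rises) and 14 of 20 (falls) hold no 24-nt sequence with another exact copy in the genome. The same held for 39.6% of all windows called higher, 47.0% of all called lower and 27.6% of all windows tested. The windows at 0 were chosen by these same counts and passed the count filter only through the other groups. A repeated sequence can also receive reads from its copies. The shares therefore describe the chosen windows, and their difference was not tested. Named windows without copies include those near AT4G10620, AT3G28660, AT3G45638, AT2G08505, *GRXC2* and AT5G08250 and the one in AT3G22955.

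**Figure D5:**
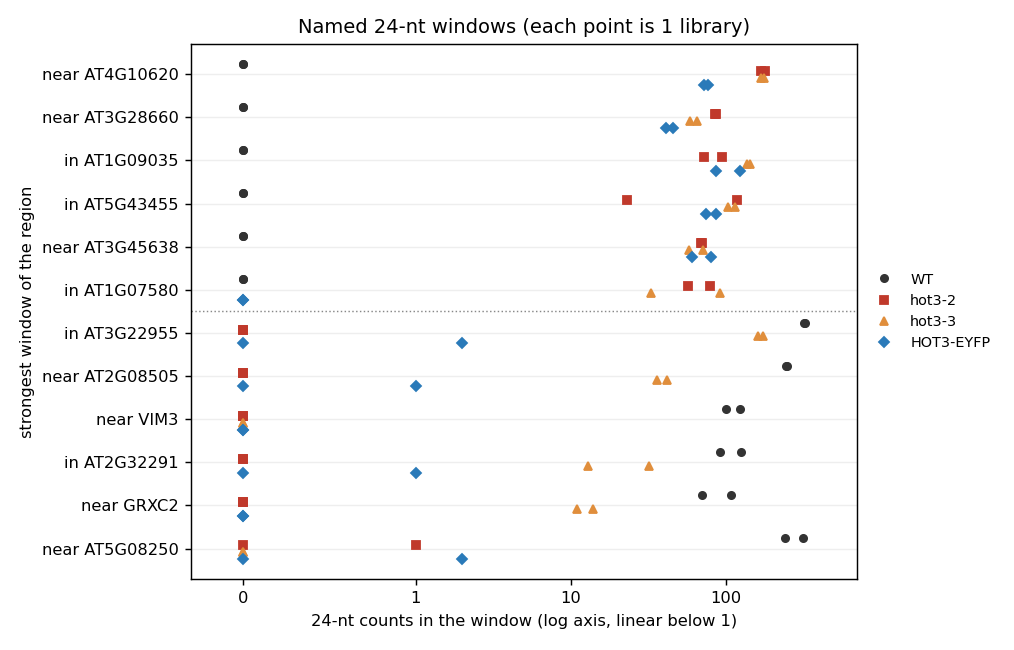
Counts of 24 nt (x axis, log scale that is linear below 1) in the strongest window of the 6 regions with the largest rise (above the dotted line) and the 6 with the largest fall (y axis, named by the gene they overlap or lie near). Each point is 1 library. WT is at 0 in all 6 rises, *hot3-2* is at 0 or 1 in all 6 falls, and *HOT3-EYFP* lies with *hot3-2* rather than WT except in AT1G07580.

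At 21 and 22 nt the strongest single windows included coding genes. A window of AT4G19580, a DNAJ domain gene, held 0 and 0 counts of 21 nt (WT), 49 and 73 (*hot3-2*), 20 and 41 (*hot3-3*), and 1 and 4 (*HOT3-EYFP*) (at least 31.1-fold higher in *hot3-2*). A window of AT3G09960, which encodes a calcineurin-like phosphoesterase, held 0 and 0 counts of 22 nt (WT), 72 and 62 (*hot3-2*), and 44 and 31 (*HOT3-EYFP*) (at least 33.3-fold). A window of AT1G14780, a perforin domain gene, held 0 and 0 counts of 22 nt (WT) and 33 and 45 (*hot3-2*). The fusion line was thus near WT at AT4G19580 and near the mutant at AT3G09960. Among falls at 21 nt, a window of *DEG6*, annotated as a DegP protease, held 30 and 28 counts (WT), 0 and 0 (*hot3-2*), 7 and 6 (*hot3-3*), and 0 and 0 (*HOT3-EYFP*) (at least 25.3-fold). At 22 nt, a window 649 bp from *CKS* held 74 and 100 counts (WT), 1 and 0 (*hot3-2*), 9 and 14 (*hot3-3*), and 2 and 0 (*HOT3-EYFP*). Falls at 22 nt in *ILA*, near *HVT1* and near AT2G08505 had between 11 and 25 counts in the WT libraries and 0 in those of *hot3-2*.

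At other lengths, the largest rise at 18 nt lay 1405 bp from AT4G09432, with 1 and 0 counts (WT), 258 and 349 (*hot3-2*), 133 and 135 (*hot3-3*), and 9 and 5 (*HOT3-EYFP*). The largest falls were at *MIR8175* at 18 nt (187 and 153 counts for WT, 31 and 33 for *hot3-2*), in AT5G38850 at 19 nt (31 and 16 for WT, 1 and 2 for *hot3-2*), in the photosystem I gene *LHCA2* at 20 nt (24 and 22 for WT, 1 and 3 for *hot3-2*, 25 and 16 for *HOT3-EYFP*) and in AT3G22955 at 23 nt (91 and 87 for WT, 0 and 0 for *hot3-2*). At *MIR8175* the level was 2200 and 1690 CPM (WT) and 4149 and 3873 (*HOT3-EYFP*), so the fusion line stood above WT there and beside WT at *LHCA2*. Sequences of the *MIR8175* window have up to 61 copies in the genome. Summed over the windows with copies, the ratio of *hot3-2* to WT in CPM was 0.375 at 18 nt.

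The largest fitted rises at 19 to 23 nt lay in a pair of tRNA-Ala genes, but did not hold over their copies. AT5G43455 held 0 and 0 counts of 21 nt (WT), 248 and 45 (*hot3-2*), 247 and 255 (*hot3-3*), and 250 and 179 (*HOT3-EYFP*). AT1G07580 held 0 and 0 (WT), 124 and 156 (*hot3-2*), 222 and 67 (*hot3-3*), and 0 and 0 (*HOT3-EYFP*). Sequences of these windows occur up to 16 times in the genome. Summed over all windows with an exact copy, the 21-nt counts were 1789 and 1880 (WT) and 1617 and 1729 (*hot3-2*), and the ratio of *hot3-2* to WT in CPM was 0.696 at 21 nt, 0.842 at 22 nt and 1.23 at 24 nt. Copies also bear on the 21-nt falls in *HAM3*, where the ratio over copies was 0.351, and in windows near AT3G33069 and AT3G33076, where sequences have up to 289 and 259 copies and the ratios were 0.454 and 0.508. A window of *MIR166f*, with 18 and 27 counts of 22 nt (WT) and 0 and 0 (*hot3-2*), summed to 0.261 over its copies.

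By annotation, snoRNA loci had a median log2 fold change of 0.94 at 21 nt and 1.08 at 24 nt, and snRNA loci of 0.05 and -0.70, with 0.18 and 0.25 over all loci. tRNA windows, against 0.00 over all windows, had medians of -0.41 at 21 nt (3 higher, 4 lower) and -0.55 at 22 nt (4 higher, 13 lower). Over all windows tested, 3.09% were higher and 1.72% lower at 21 nt, and 1.42% and 0.973% at 22 nt. Summed by gene, 61 tRNA loci had a log2 fold change above 0 and 109 below at 21 nt, and 62 and 110 at 22 nt. Sequences of tRNA windows can have copies elsewhere, as in the tRNA-Ala pair above. Apart from that pair, calls of tRNA windows were not summed over copies. miRNA genes took 48.9% and 49.0% of nuclear 21-nt counts (WT) and 41.1% and 42.0% (*hot3-2*). *TAS* genes took 16.1% in both WT libraries and 17.3% and 16.9% (*hot3-2*), but 16.1% and 15.9% (*hot3-3*) and 12.5% and 12.9% (*HOT3-EYFP*). At 24 nt, windows with no annotated gene took 68.7% in both WT libraries and 66.1% in both *hot3-2* libraries. Of the 18410 such windows tested, 80 were higher and 41 lower, while over all 24-nt windows 0.633% were higher and 0.255% lower. No transposable element annotation beyond RefSeq was used, and that class took 0.05% of 24-nt counts in both WT libraries. A window with no annotated gene may therefore lie in a transposable element.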

How the data were processed

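The deposited table, made by the authors, holds whole-number counts of small RNA reads per 100-bp window and length, without strand. The submitters' processing notes name cutadapt 4.2, Bowtie, featureCounts 2.0.3 and DESeq2 1.34.0. How reads with several genomic matches were placed is given only for the alignment to an rDNA reference (ShortStack), not for the windows, so counts of repeated sequences may belong to any copy.

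Windows on chromosomes 1 to 5 without rDNA were kept, and each length was treated alone. Windows or loci reaching 10 counts in 2 or more libraries were scaled by TMM and tested with edgeR 4.0.16 (quasi-likelihood, all 8 libraries sharing the spread, R 4.3.3), with Benjamini-Hochberg adjustment over each table. Calls needed a 2-fold change and an adjusted p under 0.01. Locus counts are the sum of the windows overlapping a gene of the RefSeq annotation of TAIR10.1. CPM are counts scaled to the TMM-adjusted nuclear library of 1 length. Library totals ran from 6793502 to 8210328 counts. At least-fold values set the group without counts to 3 counts, which covers counting error only. DESeq2 1.42.0 and further edgeR fits were used for alternatives, and Python 3.11.15 for tables. The test was checked on simulated data. Called windows within 300 bp were joined, and the strongest window of the 6 regions with the largest rise and of the 6 with the largest fall was named at 21, 22 and 24 nt (1 each at other lengths). From the gene lists, members called and those highest in WT were named. Long runs of windows and genes outside these rules were chosen after their values were seen. Members and lists were chosen with earlier results of these data known.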

Additional observations from a re-analysis of the deposited data

How the results depend on the processing

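Replicate numbers did not pair the libraries: deviations of same-numbered WT and *hot3-2* libraries at 21 nt correlated at -0.05. With a replicate block, 106 windows were higher and 53 lower at 21 nt, 110 and 73 at 22 nt, 151 and 60 at 24 nt, 125 and 48 at the other lengths (193 and 85 without the block), and 30 and 21 loci were called at 21 nt, 38 and 55 at 22 nt and 57 and 33 at 24 nt.

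At an adjusted p under 0.05, higher and lower windows numbered 196 and 131 (21 nt), 179 and 147 (22 nt) and 330 and 197 (24 nt), with 507 and 367 at the other lengths, and loci 100 and 95 (21 nt), 133 and 122 (22 nt) and 202 and 87 (24 nt). Without a count filter there were 108 lower windows at 21 nt, 285 higher and 246 lower at 24 nt, 442 and 253 at the other lengths, and 75 and 94, 77 and 105, and 189 and 87 loci. Total-count scaling gave 46 lower windows at 21 nt and 190 higher and 43 lower at 22 nt, 297 and 50 at the other lengths, and 57 and 18 (21 nt) and 114 and 36 (22 nt) loci, and nuclear-count scaling 191 lower windows at 24 nt. DESeq2 gave 48 lower windows at 22 nt, and a fit of the 4 libraries alone 112 higher and 44 lower at the other lengths, where a filter on those 4 libraries gave 128 lower. Without the inverted repeat 69 (21 nt) and 51 (22 nt) windows were higher. Windows with no repeated sequence gave 28 higher and 16 lower (21 nt), 23 and 15 (22 nt) and 65 and 31 (24 nt). The last 2 settings were chosen after seeing the data and hold fewer windows by construction. The cause of the other shifts was not tested. Leaving out 1 library, whose remaining partner is assumed to vary like the other groups, gave 85 to 96 higher and 38 to 46 lower windows at 21 nt, 84 to 91 and 33 to 47 at 22 nt, 77 to 99 and 21 to 28 at 24 nt, 50 to 70 and 21 to 28 at the other lengths, and loci 24 to 30 and 17 to 22 (21 nt), 16 to 20 and 24 to 37 (22 nt) and 28 to 35 and 11 to 18 (24 nt).

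The differences were 0.1663 points for the share of 21 nt in nuclear counts, 2.81 for the share of 22 nt in nuclear counts and -0.577 for the share of 24 nt in nuclear counts when rDNA and organelle counts were added to both the length and the total, and -0.3986, 1.07 and -4.42 without the inverted repeat. Leaving out 1 library gave -0.258 to -0.248, 1.55 to 1.63 and -4.76 to -4.59. Directions turned for AT5G43455 and AT1G07580 summed over copies (log2 -0.51 at 19 nt, -0.17 at 20 nt, -0.52 at 21 nt and -0.25 at 22 nt). With windows given to genes by their centre, which drops the window holding the mature reads, *MIR159b* was at 0.81 and *MIR398a* at 2.34 (log2, 21 nt).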

Other observations

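Loci for photosystem and light-harvesting proteins were collected by their annotated product after their values were seen, so the counts are a description. Small RNA counts at these loci were low, with at most 214 counts in a WT library at 21 nt. At 21 nt 41 of 61 such loci passed the count filter, 7 were called lower and 0 higher, and the median log2 fold change was -1.44 (*hot3-2*), -1.13 (*hot3-3*) and 0.65 (*HOT3-EYFP*), with 0.18 over all loci in *hot3-2*. At 22 nt 15 of 41 were lower and at 24 nt 6 of 39. Over all loci tested, 1.19% were lower at 21 nt, 1.65% at 22 nt and 0.607% at 24 nt. At *CAB1*, a chlorophyll a/b-binding protein gene, WT held 214 and 188 counts of 21 nt, *hot3-2* 109 and 98, and *HOT3-EYFP* 307 and 233.

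Loci for snoRNAs, which guide the modification or processing of other RNAs, and for snRNAs were also collected after their values were seen. Of 105 snoRNA loci tested at 21 nt, 93 had a log2 fold change above 0 (1755 of 3024 over all loci) with a median of 0.94, and 1 was called higher. At 22 nt their median was 0.77 over 95 loci, with 2 called higher and 5 lower, and at 24 nt 1.08 over 90 loci, with 2 higher and 2 lower. Over all loci, 1.12% were called higher and 1.19% lower at 21 nt, 1.02% and 1.65% at 22 nt, and 1.20% and 0.607% at 24 nt. The snRNA loci had medians of 0.05 (15 loci, 21 nt), -0.63 (10 loci, 22 nt) and -0.70 (15 loci, 24 nt).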
